A study of Mus musculus with 6 samples.

Results

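Repeat families of the mammalian apparent LTR retrotransposons (MaLRs) were followed in mouse induced pluripotent stem cells (iPSCs) with and without the microRNA miR-34a. Members were taken by name: every repeat family of the count table that starts with MTA, MTB, MTC, MTD, MTE, ORR1, MLT1, MST or THE1. This gave 106 of the 902 repeat families in the table, namely 2 MTA, 4 MTB, 2 MTC, 2 MTD, 9 MTE, 29 ORR1 and 58 MLT1 families. No name in the table starts with MST or THE1. Of the 106 families, 52 were terminal repeats and 54 were internal parts, whose names end in -int.

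The knockout group was 3 iPSC lines of genotype miR-34a-/- and the control group was 3 wild-type iPSC lines, all of the C57BL/6 strain. Fibroblasts of littermate E13.5 embryos were reprogrammed with retroviral Oct4, Sox2 and Klf4, so both groups went through the same viral vectors, and each line grew from a single picked colony on irradiated fibroblast feeders. Each line gave 1 poly(A)-selected, strand-specific RNA-seq library. The comparison of the genotypes asks how the RNA of pluripotent cells differs when miR-34a is missing, and here how much of that difference lies in MaLR sequence.

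MaLRs are relatives of the ERVL endogenous retroviruses that cannot copy themselves with proteins of their own. A complete element has a long terminal repeat (LTR) at each end, which holds the promoter, and an internal part between them. MT and ORR1 elements belong to rodents, with MTA among the youngest, whereas MLT1 elements are old and shared by many mammals. In mouse oocytes and early embryos, many MT and ORR1 terminal repeats serve as promoters and first exons of host genes. MERVL, a full ERVL virus whose terminal repeat is MT2_Mm, is instead known for its burst at the 2-cell stage.

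Levels are in CPM, the usual scaling of counts to library size, here to the counts of genes in the same library. A family's count adds up reads over all of its copies. Reads that began in a terminal repeat and reads of a host transcript that runs across a copy therefore cannot be told apart. The levels are neither per base nor per copy, so each family was compared between genotypes and families were not ranked by level. A fold change is the log2 ratio of the knockout to the wild-type level as edgeR fitted it, with its standard error (SE) or 95% interval, and the spread given after a mean is the SD over n = 3 lines.

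Depth ran from 8432597 to 29654855 counts per library, and repeat families took 5.40% to 6.16% of them. Of the 14717 genes tested with edgeR, 26.5% rose and 24% fell. Pluripotency markers summed to 9260 to 9668 CPM in the knockout and 7757 to 7849 CPM in the wild-type libraries, with none of the 12 at 0, and 9 of the 12 rose (against that 26.5%) while Utf1 and Lin28a fell. Fibroblast markers, which feeders can supply, summed to 2469 to 2719 CPM against 2973 to 3233 CPM, with none of the 18 at 0. Of the 15 tested whose levels reached the count filter in both genotypes, 10 fell (against that 24%) and S100a4 rose. Twist2 and Dcn reached it in every library of the wild-type group alone and are not counted. The 4 Y-linked genes summed to 0.123 to 0.358 CPM in the knockout and 38.2 to 41.2 CPM in the wild-type libraries, so in these lines that difference and the genotype cannot be told apart. The part of these differences in the MaLR values was not tested.

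MaLR RNA as a whole was present at a similar level in both genotypes. All 106 families together summed to 5634, 6088 and 5619 CPM in knockout lines 1 to 3 and to 6006, 5742 and 5996 CPM in wild-type lines 1 to 3. The groups overlapped, and the ratio of the means was 0.977. In bulk RNA, fewer cells that carry a transcript and less of it per cell cannot be told apart. The 902 repeat families together stood at 57119, 61572 and 59629 CPM in the knockout and 63218, 62205 and 66506 CPM in the wild-type lines. Here every knockout library lay below every wild-type library, with a ratio of 0.929. MaLR families made up 9.86%, 9.89% and 9.42% of the repeat counts in the knockout lines and 9.50%, 9.23% and 9.02% in the wild-type lines, ranges that overlapped. Terminal repeats carried 84.7% of the MaLR signal and internal parts 15.3%. By name group, ORR1 carried 43.0%, MLT1 14.8%, MTE 12.2%, MTD 11.8%, MTC 7.61%, MTA 6.23% and MTB 4.39%, shares that also depend on how many copies and bases each group has.

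Few MaLR families differed between the genotypes. After a filter on low counts, 84 of the 106 families were tested, among 756 repeat families in all. With edgeR's quasi-likelihood test at a Benjamini-Hochberg adjusted p under 0.05, MTA_Mm-int and MLT1J2 rose, MLT1E1A, MLT1F and MLT1H-int fell, and 79 did not pass. These 5 calls are 5.95% of the tested MaLR families, against 17.2% of all tested repeat families, of which 7.54% rose and 9.66% fell. At an unadjusted p under 0.05 by edgeR, 2 MaLR families stood higher and 8 lower. The matching count over all tested repeat families was not taken, so this split is not read as a trait of MaLR families. The genotypes did not overlap in 21 of the 84 families, 10 with the knockout above and 11 with it below, whereas 32.1% of all tested families had groups that did not overlap.

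The fold changes were small. The median log2 fold change over the 84 families was -0.04, the same as over all 756, with 30 estimates above 0 and 54 below. Their median absolute log2 fold change was 0.09, against 0.18 over all tested families. The lowest estimate was -0.72 and the highest 0.35, so no MaLR estimate reached 2-fold. Estimates of 2-fold or more were found for 19 of the 756 families, counted whether or not they passed the test. MaLR families were also measured more precisely than most, with a median SE of 0.10 against 0.14 and a median level of 33.6 CPM against 9.63 CPM. All 84 intervals lay inside a 2-fold change in either direction, as did 87.6% of the intervals of all tested families. A change of 1.5-fold or more lay outside the interval of 73 of the 84 families (86.9%), against 60.3% of all tested families. These intervals are not adjusted for the number of families.

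**Figure D1:**
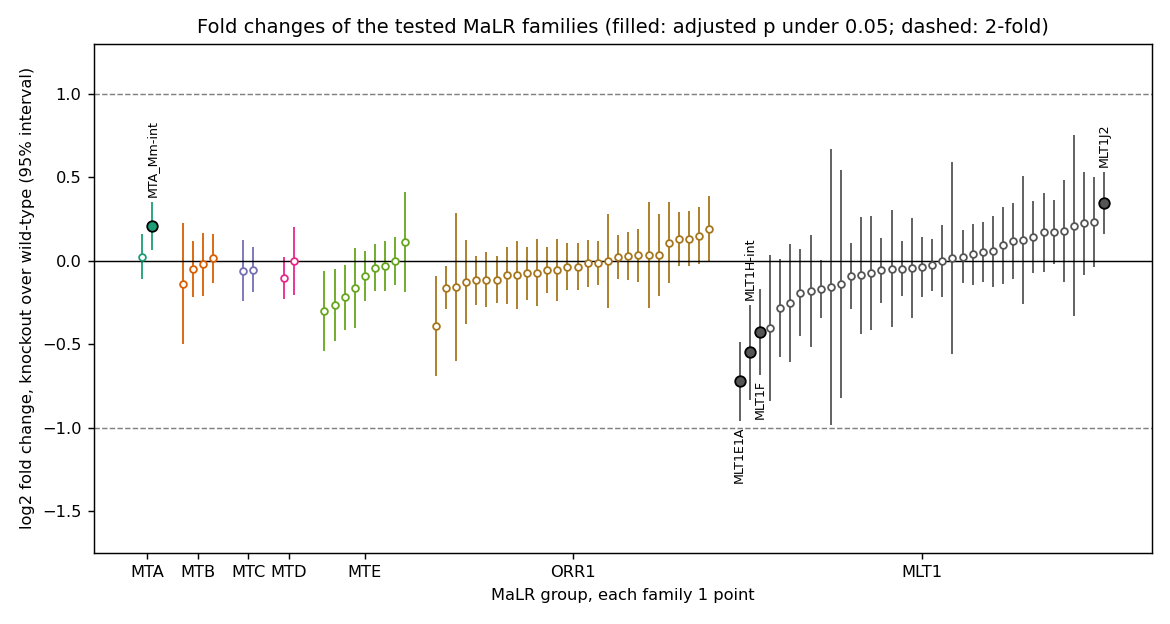
Log2 fold change of each of the 84 tested MaLR families (vertical axis, knockout over wild-type, bars are 95% intervals), ordered within name groups along the horizontal axis. The 5 filled points passed the test, and all bars stay inside the dashed lines that mark a 2-fold change.

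The remaining 22 families were not tested because their counts were too low. All were internal parts, 21 of them MLT1 families and the other ORR1G-int, and the highest count of any of them in 1 library was 26. Of the 22, 7 had 0 counts in every library. For these a level of up to 3 counts per library remains possible, which is 0.107 CPM in the deepest and 0.375 CPM in the shallowest library, as far as counting error goes.

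The youngest group, MTA, holds the terminal repeat MTA_Mm and the internal part MTA_Mm-int. MTA_Mm read 202, 218 and 209.6 CPM in knockout lines 1 to 3 and 207, 197 and 215 CPM in wild-type lines 1 to 3. The libraries of the genotypes were interleaved, and the log2 fold change was 0.02 with an interval of -0.11 to 0.16 (adjusted p = 0.85 by edgeR). MTA_Mm-int read 172, 162 and 169 CPM in the knockout and 152, 134 and 149 CPM in the wild-type lines. All knockout libraries lay above all wild-type libraries, with means of 168 ± 4.76 and 145 ± 9.75 CPM. The log2 fold change was 0.21 (SE 0.0699, interval 0.07 to 0.35, adjusted p = 0.0367 by edgeR).

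The MTA_Mm-int call depended on the settings. It was kept in 9 of 17 alternative analyses, and the log2 fold change stayed between 0.15 and 0.26 in all of them. It was lost when any library other than knockout line 2 was left out (adjusted p from 0.0553 to 0.282), with DESeq2 (adjusted p = 0.0838), with TMM scaling factors taken from all genes before the filter (0.0824) and without edgeR's robust option (0.0643). The 2 families together summed to 373, 380.2 and 378 CPM in the knockout and 358, 331 and 364 CPM in the wild-type lines, with no overlap and a ratio of 1.08.

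MTB, MTC and MTD are older MT groups, and none of their 8 families passed the test. MTB, the family with the most reads in its group, read 134, 151 and 137 CPM in the knockout and 141, 129.97 and 146 CPM in the wild-type lines, which overlapped (log2 fold change 0.02, interval -0.13 to 0.16). MTC, the group known for an LTR inside Dicer1 that starts the oocyte form of that enzyme, read 365, 411 and 367 CPM in the knockout and 403, 372 and 410.3 CPM in the wild-type lines. These too were interleaved (log2 fold change -0.05, interval -0.19 to 0.08). MTD read 617, 685 and 602 CPM in the knockout and 678, 661 and 704 CPM in the wild-type lines. Knockout line 2 lay among the wild-type libraries and the other two lay below them (log2 fold change -0.10, interval -0.23 to 0.02, adjusted p = 0.305 by edgeR). Over all 19 MT families, 1 rose, none fell, and the median log2 fold change was -0.05.

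In the MTE group, 9 families were tested and none passed, with a median log2 fold change of -0.09 and 8 of 9 estimates below 0. The terminal repeat with the most reads, MTEa, read 183, 195 and 173 CPM in the knockout and 197, 186 and 185 CPM in the wild-type lines, which overlapped (log2 fold change -0.04, interval -0.18 to 0.10). The lowest estimates belonged to internal parts, which are named here after their values were seen. MTE2a-int read 15.2, 14.9 and 13.1 CPM in the knockout and 19.6, 18.4 and 15.7 CPM in the wild-type lines. Its groups did not overlap, but the adjusted p was 0.0776 by edgeR (log2 fold change -0.30, SE 0.117). MTEb-int had a log2 fold change of -0.27 (adjusted p = 0.0828) and MTE-int one of -0.22 (adjusted p = 0.12), both with overlapping groups. Each of these 3 internal parts passed as lower in 2 or 3 of the 17 alternative analyses.

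**Figure D2:**
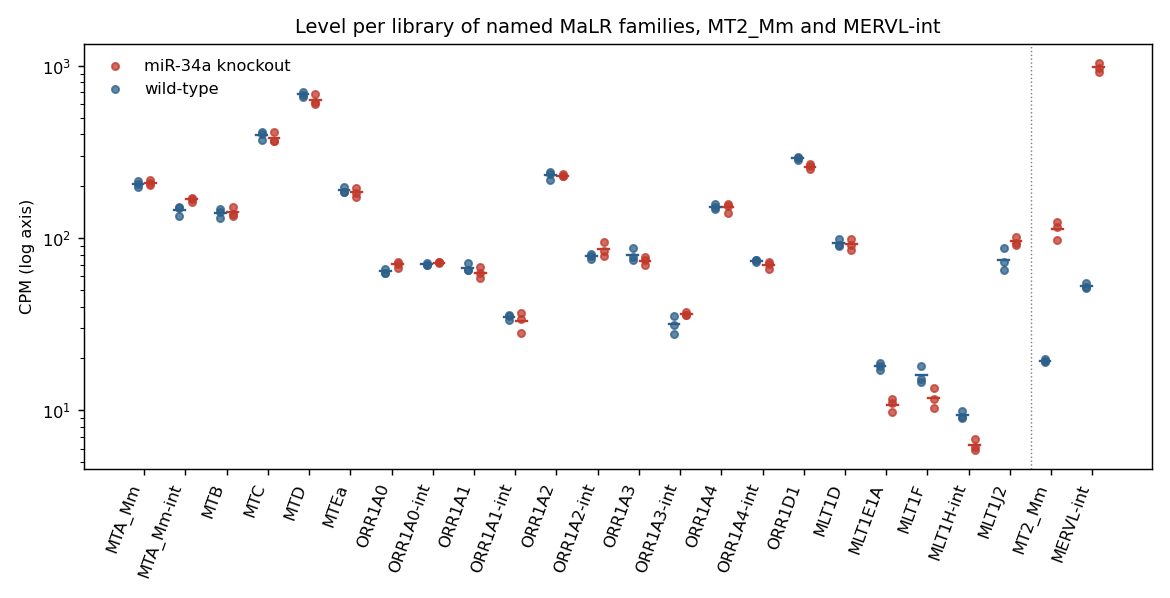
CPM (log axis) of each library for the named MaLR families, with MT2_Mm and MERVL-int to the right of the dotted line. Points are libraries and short lines are group means, and families are not comparable by height because levels are not per copy. Knockout and wild-type points lie far apart in MT2_Mm and MERVL-int. They lie closer together in the MaLR families, although without overlap in some of them, such as MLT1E1A and MLT1H-int.

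ORR1 is the largest rodent MaLR group in reads, and none of its 28 tested families passed the test. Its median log2 fold change was -0.03, with 10 estimates above 0 and 18 below. ORR1D1 had the most reads and read 250.1, 268 and 260.1 CPM in the knockout and 289, 285 and 297 CPM in the wild-type lines. All knockout libraries lay below all wild-type libraries, but the fold change was small (log2 -0.16, interval -0.29 to -0.03) and the adjusted p was 0.0813 by edgeR. It passed as lower in 2 of the 17 alternative analyses. ORR1D-int, chosen after its values were seen, read 5.63, 7.55 and 6.38 CPM against 8.90, 9.01 and 8.12 CPM. Its groups did not overlap either (log2 fold change -0.39, SE 0.146, adjusted p = 0.063), and it passed as lower in 4 alternatives.

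The ORR1A families, the young end of ORR1, were all tested, and none of the 10 passed. ORR1A0 read 67.4, 70.9 and 72.8 CPM in the knockout and 62.9, 62.8 and 66.4 CPM in the wild-type lines. The knockout lay above the wild-type throughout, with a log2 fold change of 0.13 (interval -0.03 to 0.30, adjusted p = 0.297 by edgeR). ORR1A2, which had the most reads among them, read 227, 235 and 229 CPM against 236, 218 and 243 CPM and overlapped fully (log2 fold change -0.01, interval -0.15 to 0.12). The internal part ORR1A3-int read 35.5, 37.1 and 35.7 CPM against 31.5, 27.6 and 35.3 CPM. Its knockout libraries lay above the wild-type, 1 of them by little (log2 fold change 0.19, interval -0.01 to 0.39, adjusted p = 0.211). ORR1A0-int also had the knockout above, by a log2 fold change of 0.03.

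The log2 fold changes of the other ORR1A families were -0.09 for ORR1A1, -0.07 for ORR1A1-int, 0.13 for ORR1A2-int, -0.11 for ORR1A3, -0.02 for ORR1A4 and -0.08 for ORR1A4-int, all with overlapping groups. The 10 ORR1A families together gave a ratio of knockout to wild-type of 1.00. Among the other ORR1 subgroups, the summed level was lower in every knockout library for ORR1C (ratio 0.931) and ORR1D (ratio 0.922). The sums overlapped for ORR1B, ORR1E, ORR1F and ORR1G. None of these sums was tested. All 902 repeat families together were likewise lower in every knockout library (ratio 0.929), so the ORR1C and ORR1D ratios are not read as a trait of these subgroups.

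MLT1, the ancient group, held 4 of the 5 calls: 1 of its 37 tested families rose, 3 fell and 33 did not pass, with a median log2 fold change of -0.04. Its share of called families was 10.8%, against 17.2% of all tested repeat families. The family with the most reads, MLT1D, read 85.4, 91.4 and 98.7 CPM in the knockout and 98.3, 90.9 and 89.9 CPM in the wild-type lines, which overlapped (log2 fold change -0.02, interval -0.18 to 0.13). The 3 that fell had lower levels, with means over all libraries of 7.81 to 14.4 CPM. MLT1J2, which rose, had a mean of 85.3 CPM, near the 92.5 CPM of MLT1D.

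MLT1E1A, a terminal repeat, had the largest change of any MaLR family. It read 10.95, 11.6 and 9.81 CPM in the knockout and 18.9, 18.0 and 17.1 CPM in the wild-type lines. The genotypes were clearly apart, with means of 10.8 ± 0.885 and 18.0 ± 0.862 CPM, and the log2 fold change was -0.72 (SE 0.117, interval -0.96 to -0.48, adjusted p = 3.56e-05 by edgeR). This call was kept in all 17 alternative analyses. Its sister terminal repeats did not pass: MLT1E1 had a log2 fold change of 0.17, MLT1E2 one of 0.00, MLT1E3 one of -0.28 and MLT1E one of 0.13.

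MLT1H-int, an internal part, read 5.88, 6.83 and 6.13 CPM in the knockout and 9.06, 9.88 and 9.09 CPM in the wild-type lines. Again no libraries overlapped, and it fell by 0.55 on the log2 scale (SE 0.139, adjusted p = 0.00551 by edgeR), a call kept in all 17 alternatives. The terminal repeat MLT1H read 20.1, 22.7 and 21.3 CPM against 19.97, 17.5 and 20.1 CPM, which overlapped, with a log2 fold change of 0.15 that did not pass.

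MLT1F, a terminal repeat, read 11.6, 13.6 and 10.3 CPM in the knockout and 18.2, 14.5 and 15.3 CPM in the wild-type lines. The groups did not overlap, although knockout line 2 and wild-type line 2 were near each other, and it fell by 0.43 on the log2 scale (SE 0.126, adjusted p = 0.0177 by edgeR). The call was lost when knockout line 1 (adjusted p = 0.116), knockout line 3 (0.0553) or wild-type line 1 (0.193) was left out.

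MLT1J2, a terminal repeat, read 91.2, 102 and 93.7 CPM in the knockout and 72.1, 64.9 and 88.0 CPM in the wild-type lines. Knockout libraries were all higher, with wild-type line 3 close to them, and it rose by a log2 fold change of 0.35 (SE 0.0905, interval 0.16 to 0.53, adjusted p = 0.00843 by edgeR). Leaving out knockout line 2 (adjusted p = 0.0903) or wild-type line 2 (0.0837) ended the call. The related MLT1J and MLT1J1 had log2 fold changes of -0.06 and -0.04, and MLT1J-int one of 0.23 with an adjusted p of 0.26.

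Sums over the subgroups of MLT1 were not tested. In these sums, every knockout library was above the wild-type for MLT1J (ratio 1.16) and MLT1L (ratio 1.12), and every one was below for MLT1E (ratio 0.893) and MLT1C (ratio 0.888). The MLT1J and MLT1E ratios include the called MLT1J2 and MLT1E1A, whereas those of MLT1L and MLT1C rest almost wholly on the terminal repeats MLT1L (adjusted p = 0.241 by edgeR) and MLT1C (adjusted p = 0.202), which did not pass. In the 10 further MaLR families whose genotypes did not overlap, none passed the test. The knockout was above in MLT1E1 (log2 fold change 0.17), MLT1L (0.17), MLT1J-int (0.23), MTE2b-int (0.11) and ORR1E-int (0.11). It was below in MLT1C (-0.17), MLT1F-int (-0.40), MLT1G1 (-0.19), ORR1C1 (-0.11) and ORR1C2 (-0.12). ORR1C1 shows how small a shift can separate 3 libraries from 3: it read 123, 122 and 122 CPM in the knockout and 134, 131 and 133 CPM in the wild-type lines, with an adjusted p of 0.3.

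**Figure D3:**
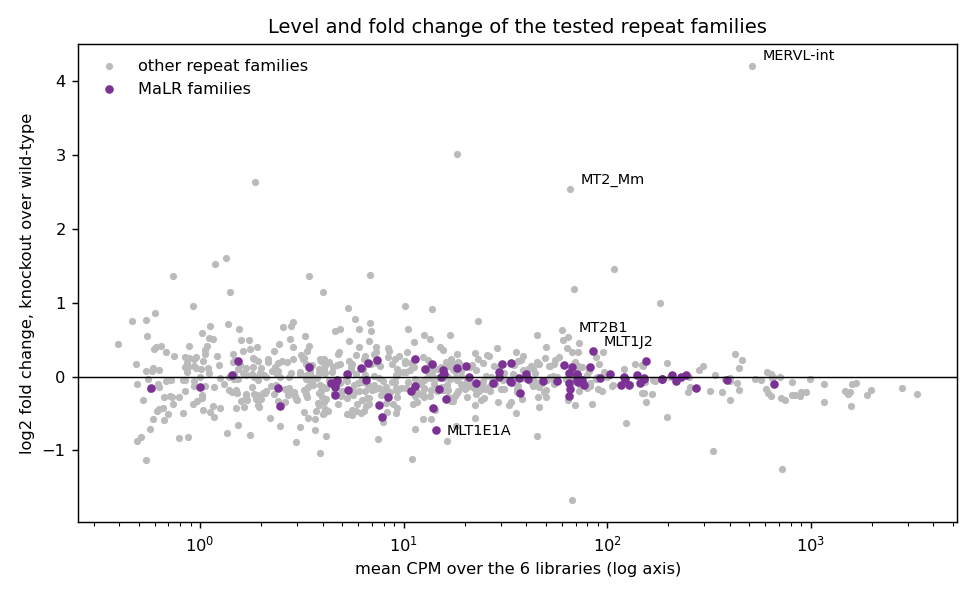
Log2 fold change (vertical axis, knockout over wild-type) against mean CPM over the 6 libraries (log axis) for the 756 tested repeat families, with MaLR families in purple. MaLR families lie in a narrow band between -0.72 and 0.35, and MERVL-int stands at 4.21.

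The ERVL retrovirus MERVL gave a contrast within the same libraries. MERVL-int, its internal part, read 975, 924 and 1032 CPM in the knockout and 52.0, 51.2 and 55.1 CPM in the wild-type lines, wide apart (log2 fold change 4.21, interval 4.06 to 4.36). Its terminal repeat MT2_Mm read 124, 115 and 97.7 CPM against 19.4, 19.9 and 18.9 CPM, also without overlap (log2 fold change 2.54, interval 2.35 to 2.73). By log2 fold change MERVL-int ranked first of the 756 families, and the highest MaLR family, MLT1J2, ranked 76.

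The difference between MERVL and the young MaLR was then taken within each library. The log2 ratio of MT2_Mm to MTA_Mm differed by 2.47 between the genotypes and that of MERVL-int to MTA_Mm-int by 3.99, each without overlap. These 2 ratios were added to the planned ones, and their differences largely restate the fold changes given above. The exact two-sided permutation p was 0.1 for both, the smallest that 3 against 3 libraries allow, so this test cannot pass 0.05. Among further MT2 and MERVL families chosen after their values were seen, MT2B1 rose by a log2 fold change of 0.53, whereas MT2A (-0.11), MT2B (0.00), MT2B2 (0.17), MT2C_Mm (-0.04) and MERVL_2A-int (-0.03) did not pass.

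The balance of internal part to terminal repeat was examined in 29 pairs, since a transcript that crosses a whole element adds to both while an LTR used as a promoter adds mostly to the terminal repeat. The log2 ratio was taken per library with 0.5 CPM added to each value. In 21 pairs the genotypes overlapped, in 4 every knockout library was above, and in 4 every knockout library was below. For scale, the genotypes did not overlap in 32.1% of all tested repeat families, a share of single families rather than of ratios. The 8 pairs without overlap are therefore described and not read as a result. The lowest exact two-sided permutation p was 0.1, the smallest possible with groups of this size, and 0.362 after adjustment over the pairs. That smallest p lies above the threshold for a call. The test therefore could not pass any pair, whatever the values, and nothing is concluded from it.

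In the MTA_Mm pair the log2 ratio was -0.23, -0.42 and -0.31 in the knockout and -0.45, -0.56 and -0.53 in the wild-type lines, with the knockout above by 0.19. The widest shift was in the MLT1H pair, with -1.69, -1.66 and -1.72 in the knockout and -1.10, -0.79 and -1.10 in the wild-type lines, so the knockout was below by 0.69. The knockout was also above in the pairs of ORR1A3 (by 0.31), MTD (by 0.09) and ORR1E (by 0.08). It was below in those of ORR1D (difference -0.28), MTE (difference -0.18) and ORR1D2 (difference -0.09), where the internal parts of MTE and ORR1D were set against the summed terminal repeats of their groups.

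**Figure D4:**
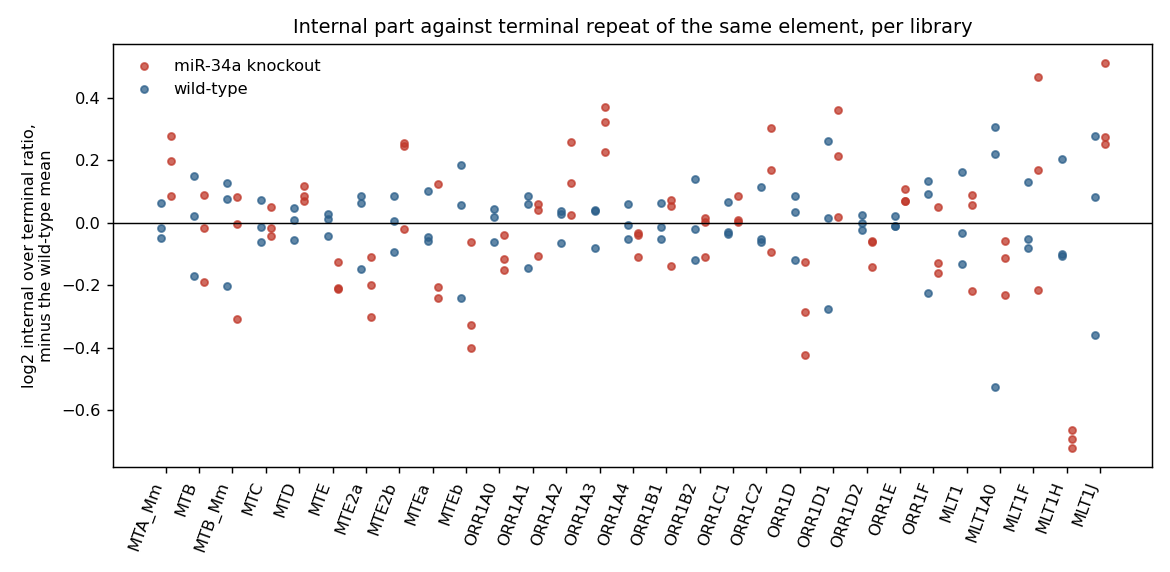
Log2 ratio of internal part to terminal repeat in each library for the 29 pairs, minus the wild-type mean of the pair (vertical axis, log2). Points are libraries. The knockout points of MLT1H lie together near -0.69 and those of most other pairs are mixed with the wild-type points.

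Gene lists were then read for the settings in which MaLR elements are known to be used or controlled: oocyte expression, repression of ERVL elements, small RNA pathways and the 2-cell programme. With the shares of all tested genes that rose and fell at 26.5% and 24%, a member that changed is common in these libraries. Of 28 oocyte and maternal genes, 9 were tested, and 6 of them reached the filter level of 0.568 CPM in every library of both genotypes. Of these 6, Ooep rose, Zp3 and Spin1 fell, and 3 did not pass. Padi6, Oas1d and Npm2 reached that level in the knockout libraries alone, which fixed their direction, so they are not counted. Ooep, a part of the maternal complex beneath the egg membrane, stood at 87.7 ± 1.34 CPM against 60.4 ± 3.59 CPM. Npm2, an egg histone chaperone, stood at 1.99 ± 0.538 CPM against 0.384 ± 0.116 CPM. Spin1, which is abundant in the oocyte but also widely expressed, stood at 101 ± 4.55 CPM against 143 ± 10.6 CPM.

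The defining oocyte markers were low in both genotypes. The sum of the 8, among them the egg coat genes Zp1, Zp2 and Zp3 and the growth factors Gdf9 and Bmp15, was 5.36 to 5.63 CPM in the knockout and 6.60 to 8.89 CPM in the wild-type libraries. Oosp1 was at 0 in every library, and only Zp3 passed the count filter, at 4.23 ± 0.269 CPM against 6.79 ± 1.09 CPM (log2 fold change -0.66).

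Of 38 tested repressors of ERVL elements and writers or readers of H3K9 methylation, 6 rose, 15 fell and 17 did not pass, with a median log2 fold change of -0.08 against 0.01 over all genes tested. Suv39h1, an H3K9 methyltransferase, rose by a log2 fold change of 1.37 (SE 0.0664), from 28.7 ± 0.185 to 73.5 ± 4.61 CPM. Smchd1, a chromatin repressor of the inactive X and of gene clusters, fell from 66.5 ± 1.203 to 38.3 ± 4.47 CPM. Cbx1, an HP1 protein that binds methylated H3K9, fell from 324 ± 10.2 to 227 ± 13.01 CPM. A further 3 members were picked after their values were seen, for their known part in silencing endogenous retroviruses. Trim28, the corepressor that zinc finger proteins recruit to them, rose by a log2 fold change of 0.14 (adjusted p = 0.0449 by edgeR), and Setdb1, the methyltransferase it brings along, fell by 0.15 on the log2 scale (adjusted p = 0.0177). Kdm1a, a histone demethylase that represses MERVL, stood at 256 ± 9.74 CPM against 255 ± 2.14 CPM and did not pass.

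In the small RNA pathway, 21 tested genes reached the filter level in both genotypes, and 6 of them rose, 8 fell and 7 did not pass. Dicer1, the nuclease that makes microRNAs and the oocyte's small interfering RNAs, fell by 0.33 on the log2 scale (SE 0.0532, adjusted p = 3.92e-05 by edgeR), from 191 ± 9.12 to 152 ± 4.35 CPM. Its count covers the whole gene and does not separate the MTC-started oocyte form. Piwil2, a PIWI protein of the germ line, rose from 24.6 ± 1.32 to 41.4 ± 1.37 CPM, Tex19.1, which limits retrotransposons in germ and pluripotent cells, from 84.7 ± 2.36 to 120.4 ± 3.63 CPM, and Tnrc6c, a partner of Argonaute proteins, from 116.9 ± 3.34 to 162 ± 9.45 CPM. The other genes that fell were Drosha, Dgcr8, Ago1, Ago2, Tarbp2, Xpo5 and Mov10, and the others that rose were Mov10l1, Tdrkh and Mael, named after their values were seen. Piwil1 and Tdrd9 reached the filter level in the knockout libraries alone and are not counted. Piwil4 is not counted either, since wild-type line 1 missed that level at 0.369 CPM. Wild-type lines 2 and 3 reached it, at 1.00 and 1.74 CPM, and Piwil4 did not pass the test (log2 fold change 0.23).

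Genes of the 2-cell stage stood far apart between the genotypes, as MERVL did. The 23 matched 2-cell stage genes summed to 207, 202 and 215 CPM in the knockout and 1.80, 2.63 and 2.51 CPM in the wild-type lines. Tmem92 stood at 32.4 ± 1.56 CPM against 0.111 ± 0.128 CPM, Usp17le at 20.8 ± 1.44 CPM against 0.194 ± 0.116 CPM and Chit1 at 20.7 ± 1.77 CPM against 0.498 ± 0.184 CPM. Because knockout libraries alone carried these genes past the filter on low counts, the number called is not read as a result. Of 16 tested activators of that programme, Duxf3, Zscan4c, Zscan4d and Zscan4f passed the filter in the same way and are not counted. Among the other 12, 4 rose, 4 fell and 4 did not pass. Dppa3, a maternal factor also made in naive pluripotent cells, fell from 91.3 ± 3.59 to 26.3 ± 1.59 CPM. Of the 2-cell Zscan4 genes, Zscan4d stood at 13.1 ± 1.86 CPM in the knockout against 0.168 ± 0.146 CPM, and Zscan4c at 15.6 ± 1.68 CPM against 0.0352 ± 0.0326 CPM.

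Within genotypes, 2 libraries tended to the same side across repeat families of all kinds. Knockout line 2 was the highest knockout library in 59 of the 84 tested MaLR families, and in 457 of the 756 tested repeat families. Wild-type line 2 was the lowest wild-type library in 42 of 84, and in 352 of 756. Without knockout line 2, 6 MaLR families were lower and 1 higher, and without wild-type line 2, 3 were lower and 0 higher. MLT1E1A and MLT1H-int passed as lower with each of the 6 libraries left out in turn.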

How the data were processed

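RNA-seq was analysed from 6 libraries, 3 miR-34a knockout and 3 wild-type iPSC lines, grouped by genotype in the labels. The deposited table holds raw counts per gene and repeat family, not normalized. Tools listed in the submitters' processing notes are featureCounts 1.4.5 and TopHat2 2.0.11, and the build is mm10. How strand and multiply mapped reads were handled in counting, which bears directly on repeat counts, is not stated in the sources used here. Of 42290 features, 41388 were genes, 40254 with a symbol in GENCODE, and 902 were repeat families. A second table has 6 columns that match no sample, and they were not used.

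In R 4.3.3, edgeR 4.0.16 tested the repeat families past filterByExpr (glmQLFit with robust = TRUE, glmQLFTest, two-sided), scaled by the gene totals and the TMM factors of genes past the same filter. A call is an adjusted p under 0.05 (Benjamini-Hochberg over all tested families). Genes were tested in the same way. Intervals use the t distribution of that fit. The scripts were tested on simulated counts. Alternatives were DESeq2 1.42.0, limma 3.58.1 voom, other scalings and filters, a replicate block and each library left out, 17 in all. The scaling with TMM factors of all genes, before the filter, was chosen after seeing the data.

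The members, gene lists and tests were chosen with earlier results of these data known. Families named were those called, the one with the most reads in each name group, all MTA and ORR1A families, MERVL-int and MT2_Mm. Genes named were Dicer1 and up to 3 in each of the 5 lists beside the markers, those with the smallest p. Genes that reached the filter level in every library of 1 genotype alone were left out of the counts of changed genes. Other names were chosen after their values were seen.

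No library was a copy of another: between pairs of 1 genotype, chi-square over genes with 20 or more counts was 2.25 to 20.01 times its degrees of freedom. The p-values weigh the genotypes against the spread between lines, and the embryo behind each line is not stated. No sequences are shown.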

Additional observations from a re-analysis of the deposited data

How the results depend on the processing

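The median MaLR log2 fold change, -0.04 in the results above, stayed between -0.09 and 0.01 over the 17 alternatives. It was above 0 only when the repeat families were scaled alone (0.01). For scale, the SD of the MaLR median between libraries was 0.06. Of the 84 tested families, 72 were called neither in the results above nor in any alternative, and 7 only in alternatives. The number of MaLR families called higher, 2 in the results above, was 1 with DESeq2, 1 with TMM factors of all genes, 4 with repeat families scaled alone, 1 with robust = FALSE, and 0 to 1 with each library left out, 0 without wild-type replicate 2. The number called lower, 3 above, was 5 with TMM factors of all genes, 7 with genes and families in 1 fit, and 2 to 6 with each library left out, 6 without knockout replicate 2 and 5 when wild-type replicate 3 was left out. The splits of higher to lower MaLR calls were thus 2 to 3 in the results above, 4 to 3 with repeat families scaled alone and 1 to 5 with TMM factors of all genes. Over all repeat families, 57 were higher and 73 lower, against 83 and 61 with repeat families scaled alone. The number lower was 113 with genes and families in 1 fit and 26 to 79 with each library left out, 26 without knockout replicate 1 and 47 when wild-type replicate 1 was left out. The causes were not tested. With the replicate number as a block, 2 MaLR families were higher and 6 lower, and 61 and 88 of all families. Replicate numbers share no stated origin, and the deviations of same-numbered libraries correlated at r = 0.04, -0.01 and 0.20 over the 756 families, so the numbers were not taken to pair the samples. The number of genes called in each whole list, members that reached the filter in 1 genotype included, stayed within 1.5 times its first value in all 10 alternatives run for it. The shallowest libraries, knockout replicate 3 and wild-type replicate 2, limit the families under 2 CPM, where intervals were widest.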
